A study of Mus musculus with 12 samples.

Results

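The genes described here are 10 genes of MHC class I antigen presentation and of the immunoproteasome: H2-K1, H2-D1, B2m, Tap1, Tap2, Tapbp, Psmb8, Psmb9, Psmb10 and Nlrc5. They were chosen by name, as the rows of the count table whose gene symbol is on that list, and all 10 were found among its 39756 genes. RNA was sequenced from the ischemic hemisphere of 12 male C57BL/6J mice of 9 to 10 weeks, with 4 mice per group (Sham, Vehicle and LJP). Sham mice had the surgery without the occlusion. In the other groups a filament closed the middle cerebral artery for 45 min and was then withdrawn, a model of ischemia and reperfusion called tMCAO. LJP, a sulfated polysaccharide of the brown seaweed Laminaria japonica, was given to the LJP mice by mouth each day for 14 days before surgery and again after it, and Sham and Vehicle mice received saline by the same schedule. By the study's methods the middle LJP dose was kept for later experiments after a dose comparison, and neither the dose nor the time of collection is stated for the sequenced mice themselves. Total counts were 17960353 to 22216315 per mouse, and all 10 genes passed the filter on low counts that left 17558 genes. Levels are given as CPM, counts scaled to the TMM-normalized library size, and mice are named by group and replicate number. Neuron, astrocyte and oligodendrocyte markers were abundant in every mouse, with summed neuron markers at 4052 CPM or more, which fits the label of brain tissue. A hemisphere holds many cell types, and in such bulk RNA more cells of a type and more RNA per cell cannot be told apart.

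MHC class I molecules show short peptides from inside a cell at its surface, where CD8 T cells and natural killer cells read them. H2-K1 and H2-D1 encode the polymorphic heavy chains, and B2m encodes the light chain, beta 2 microglobulin, that every such complex needs. The peptides are cut by the proteasome, and the interferon-inducible subunits Psmb8, Psmb9 and Psmb10 take the places of the constitutive catalytic subunits Psmb5, Psmb6 and Psmb7 to form the immunoproteasome. Tap1 and Tap2 make up the transporter that carries peptides into the endoplasmic reticulum, where Tapbp (tapasin) ties it to the waiting heavy chain, and Nlrc5 is a transactivator that acts at class I promoters. In the healthy brain class I is low, and it is known to be raised in glia, vessels and neurons by interferons and by injury.

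The positions below are those of GRCm38, whose RefSeq gene positions equal those in the count table. Of the 10 genes, 7 lie in the major histocompatibility complex on chromosome 17, B2m is on chromosome 2, and Nlrc5 and Psmb10 are on chromosome 8. Psmb9 (chr17:34182030-34187330, minus strand) and Tap1 (chr17:34187556-34197225, plus strand) stand head to head with 225 bases between them, and Psmb8 (chr17:34198195-34201454) and Tap2 (chr17:34204479-34216321) follow, so that these 4 genes fill 34.3 kb. Tapbp (chr17:33919478-33929290) and H2-K1 (chr17:33996012-34000619, minus strand) lie to one side of that run and H2-D1 (chr17:35263094-35267497) to the other. Promoter windows, 250 bases before to 50 after a RefSeq start (GRCm38.p6), were at hand for 8 of the 10 genes, and not for Tap2 or Nlrc5. They were searched on both strands for 5 short motifs. The 250 bases before the H2-K1 and H2-D1 starts and the B2m start, and the interval that Tap1 and Psmb9 share, are printed 5′ to 3′ on the strand of the named gene (for the interval, that of Tap1), because the levels of these 5 genes carry much of what follows. Capitals mark the motif matches, of which none overlapped another.
H2-K1 (chr17:34000334-34000583, minus strand): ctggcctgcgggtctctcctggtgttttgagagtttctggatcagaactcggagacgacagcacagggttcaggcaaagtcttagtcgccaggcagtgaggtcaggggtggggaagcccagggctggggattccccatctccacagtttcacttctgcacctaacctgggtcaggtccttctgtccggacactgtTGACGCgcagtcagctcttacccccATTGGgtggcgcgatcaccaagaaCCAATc
H2-D1 (chr17:35262844-35263093, plus strand): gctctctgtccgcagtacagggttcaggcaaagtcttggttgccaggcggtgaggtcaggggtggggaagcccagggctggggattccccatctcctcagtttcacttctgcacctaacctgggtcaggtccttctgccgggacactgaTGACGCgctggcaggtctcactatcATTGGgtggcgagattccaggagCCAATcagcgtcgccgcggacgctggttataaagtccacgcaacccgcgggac
B2m (chr2:122147437-122147686, plus strand): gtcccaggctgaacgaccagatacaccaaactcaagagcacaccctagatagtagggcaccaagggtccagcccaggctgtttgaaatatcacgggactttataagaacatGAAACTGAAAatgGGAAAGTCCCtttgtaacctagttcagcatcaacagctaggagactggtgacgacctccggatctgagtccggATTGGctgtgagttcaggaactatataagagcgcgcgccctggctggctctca
Tap1 and Psmb9 (chr17:34187331-34187555, plus strand): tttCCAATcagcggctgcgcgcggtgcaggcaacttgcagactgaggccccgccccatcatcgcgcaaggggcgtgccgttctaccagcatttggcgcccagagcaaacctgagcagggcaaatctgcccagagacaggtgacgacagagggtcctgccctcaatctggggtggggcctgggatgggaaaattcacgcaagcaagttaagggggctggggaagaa

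The H2-K1 and H2-D1 stretches have 47 bases in a row in common. Both held the X2 box core TGACGC, with its first base at -55 from the H2-K1 start and at -101 from the H2-D1 start, followed in both by 2 matches to CCAAT, the Y box. H2-K1 also had a window from another RefSeq start. Counted from that start, TGACGC was at -41 and the CCAAT matches were at -16 and 9. The H2-K1 stretch lies inside the gene's annotated span, since longer RefSeq models of H2-K1 begin upstream. TGACGC occurred in 7.4% and CCAAT in 37.4% of the 32851 windows of all genes. B2m held an interferon-stimulated response element, searched as GAAA, any 2 bases and GAAA, at -139 (3.44% of all windows), a kappa B motif, searched as GGG, any 2 bases and TTTCC, at -126 on the other strand (1.63%) and a CCAAT match at -53. The Tap1 and Psmb9 interval held a CCAAT match, and the window of Psmb8 held the gamma-activated site TTCNNNGAA at -97 (8.3%). The Psmb10 window held none of the 5. A match describes letters in a window and not a bound site. The patterns are strict, so a stretch without a match may hold a variant form of a motif. This covers the H2-K1 and H2-D1 stretches, which had no match to the interferon or kappa B patterns.

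All 10 genes were higher in the Vehicle group than in the Sham group. Their log2 fold changes ran from 0.73 for Psmb10 to 3.03 for Tap1, with a median of 2.12, where the median of all genes tested was near 0 (3.54e-05). In edgeR's quasi-likelihood test over all genes, 10 of 10 passed an adjusted p of 0.05 as higher, while 22.7% of all genes did so. In 10 of 10 the lowest Vehicle mouse stood above the highest Sham mouse, which held for 20.7% of all genes. The mice are labelled as separate animals, so the tests measure the spread between mice within 1 experiment.

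Among the genes of the complex itself, the heavy chains H2-D1 and H2-K1 rose 4-fold or more and their light chain B2m rose 2.73-fold. Values are listed in the order of the replicate numbers. H2-K1 was at 31.4, 31.0, 33.9 and 35.9 CPM in Sham mice, 136, 250.1, 75.1 and 111 CPM under Vehicle and 114, 47.1, 88.4 and 64.5 CPM under LJP. Its Vehicle mean exceeded the Sham mean by 2.12 on the log2 scale (standard error 0.34, edgeR adjusted p = 0.000784), a 4.33-fold difference. The 4 Sham mice were nearly level, and the 4 Vehicle mice spread over a 3.33-fold range with Vehicle 2 at the top. H2-D1 was at 46.1, 49.3, 57.5 and 58.1 CPM in Sham mice, 272, 449, 126 and 177 CPM under Vehicle and 159, 83.8, 141 and 109 CPM under LJP. Its Vehicle to Sham difference was 2.28 on the log2 scale (standard error 0.33, edgeR adjusted p = 0.000499), or 4.85-fold. Vehicle 1 and Vehicle 2 stood well above Vehicle 3 and Vehicle 4, and every Vehicle and LJP mouse lay above every Sham mouse. B2m was at 39.0, 39.6, 38.7 and 37.9 CPM in Sham mice, 73.9, 162, 78.5 and 109 CPM under Vehicle and 135, 50.7, 106 and 76.1 CPM under LJP. Its Vehicle to Sham difference was 1.45 on the log2 scale (standard error 0.29, edgeR adjusted p = 0.00251). For this light chain the Vehicle and LJP mice were intermixed, and LJP 1 was above 3 of the 4 Vehicle mice.

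The heavy chains and the light chain did not keep the same proportion in every mouse. The log2 ratio of H2-D1 to B2m was 0.24, 0.32, 0.57 and 0.61 for Sham mice, 1.88, 1.47, 0.68 and 0.69 under Vehicle and 0.23, 0.73, 0.42 and 0.51 under LJP. The ratio of H2-K1 to B2m was likewise highest in Vehicle 1 (0.88) and Vehicle 2 (0.63), and it lay between -0.35 and 0.03 in the other 10 mice. These ratios were looked at after the levels had been seen, so no test is given for them. Class I heavy chains resemble each other, and reads can be split among them: of the 100-base words in the H2-D1 transcripts, 3.59% also occur in transcripts of other genes, against 0.957% for H2-K1. With the counts of 14 class I heavy chain genes added into 1 value, the Vehicle to Sham difference was 1.83 on the log2 scale (edgeR adjusted p = 0.000971). The LJP to Vehicle difference of this sum was -0.84 (edgeR adjusted p = 0.0963) and the LJP to Sham difference 0.99 (edgeR adjusted p = 0.0831). The sum was also added after the data had been seen, so its p-values are descriptive.

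The peptide transporter and its loading partner were higher after tMCAO as well, with the largest estimate for Tap1. Tap1, which forms the transporter together with Tap2, was at 3.00, 2.40, 3.18 and 3.52 CPM in Sham mice, 32.8, 40.8, 8.93 and 16.1 CPM under Vehicle and 14.1, 5.73, 14.8 and 7.64 CPM under LJP. The Vehicle to Sham difference of Tap1 was 3.03 on the log2 scale (standard error 0.46, edgeR adjusted p = 0.000606), or 8.15-fold. Vehicle 1 and Vehicle 2 were again the high mice, and the Vehicle range spanned 4.57-fold, the widest of the 10 genes. Tap2 was at 10.8, 11.1, 10.3 and 10.7 CPM in Sham mice, 35.8, 49.7, 20.02 and 24.2 CPM under Vehicle and 21.0, 14.5, 20.6 and 17.2 CPM under LJP. The Vehicle to Sham difference of Tap2 was 1.60 on the log2 scale (standard error 0.24, edgeR adjusted p = 0.000566). On the scale of gene length, Tap2 was at 4.30 and Tap1 at 1.03 CPM per kb in the Sham group, against 13 and 8.36 CPM per kb in the Vehicle group. Tapbp was at 36.6, 36.2, 36.0 and 42.9 CPM in Sham mice, 123, 122, 63.5 and 75.1 CPM under Vehicle and 74.3, 49.2, 64.7 and 45.4 CPM under LJP. The Vehicle to Sham difference of Tapbp was 1.34 on the log2 scale (standard error 0.22, edgeR adjusted p = 0.000877). Sham 4 stood apart from the other 3 Sham mice for Tapbp, and LJP 4 came close to it. An antisense gene, Gm19412, overlaps Tapbp, and the strand setting of the counting is not given in the sources used here; Gm19412 had 23 to 109 counts per mouse, against 635 or more for Tapbp.

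Of the immunoproteasome subunits, Psmb8 and Psmb9 rose several-fold and Psmb10 rose less than 2-fold. Psmb8, the chymotrypsin-like subunit, was at 2.71, 2.45, 1.86 and 2.75 CPM in Sham mice, 13.1, 25.2, 8.83 and 11.0 CPM under Vehicle and 11.7, 4.65, 10.8 and 7.08 CPM under LJP. Its Vehicle to Sham difference of 2.57 on the log2 scale (standard error 0.36, edgeR adjusted p = 0.000424) was 5.94-fold. Vehicle 2 was the high mouse, with 586 counts of Psmb8, where the Sham mice had 34 to 53. Psmb9, which shares its upstream interval with Tap1, was at 0.807, 1.14, 1.10 and 0.933 CPM in Sham mice, 5.54, 7.18, 2.10 and 2.64 CPM under Vehicle and 4.54, 1.99, 3.92 and 2.62 CPM under LJP. The Vehicle to Sham difference of Psmb9 was 2.13 on the log2 scale (standard error 0.41, edgeR adjusted p = 0.00209). These levels rest on few reads, 14 to 21 counts per Sham mouse, and the Vehicle mice fell into a high pair (1 and 2) and a low pair (3 and 4) just above the LJP minimum. Psmb10, the trypsin-like subunit, was at 22.8, 23.4, 27.8 and 28.6 CPM in Sham mice, 58.2, 43.1, 31.4 and 37.9 CPM under Vehicle and 34.2, 28.3, 30.9 and 31.6 CPM under LJP. Its Vehicle to Sham difference of 0.73 on the log2 scale (standard error 0.16, edgeR adjusted p = 0.00406) was 1.66-fold. Vehicle 3, at 31.4 CPM, was close to the top Sham mouse at 28.6 CPM, and the LJP mice overlapped the Sham mice.

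Nlrc5, the transactivator of class I promoters, was the least abundant of the 10 genes per kilobase of gene length. It was at 0.692, 0.654, 1.32 and 1.45 CPM in Sham mice, 8.94, 10.3, 3.23 and 3.83 CPM under Vehicle and 6.13, 2.71, 4.35 and 2.79 CPM under LJP. The Vehicle to Sham difference of Nlrc5 was 2.67 on the log2 scale (standard error 0.45, edgeR adjusted p = 0.00112), or 6.37-fold. The Sham mice had 12 to 28 counts, and every Vehicle and LJP mouse had 50 or more. Its 3 annotated overlapping genes had at most 7 counts in any mouse.

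**Figure D1:**
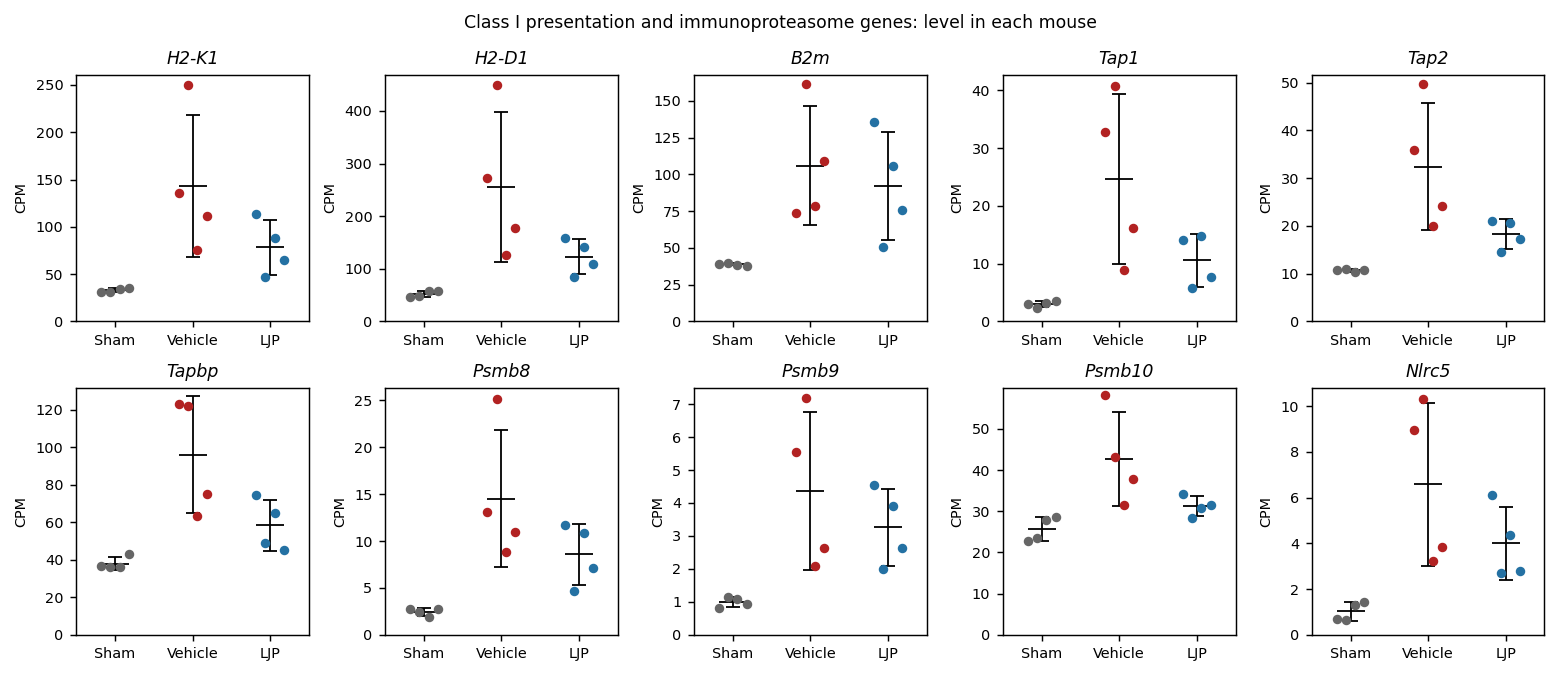
Level of each of the 10 genes in CPM (y axis, linear, from 0) in the 12 mice by group, with 1 point per mouse and bars for the mean and SD of 4 mice. Sham points lie below all Vehicle points in every panel, Vehicle points are widely spread, and LJP points overlap the Vehicle points in every panel.

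Between the LJP and Vehicle groups no gene of the 10 passed the adjusted threshold in edgeR's test, in which 0.0228% of all genes tested were lower and 0% were higher in the LJP group. All 10 estimates were negative, as were 50.2% of all genes, with a median log2 fold change of -0.74. At an unadjusted p below 0.05, 7 of the 10 were lower (17.4% of all genes), DESeq2 called 5 of the 10 lower at an adjusted p below 0.05 (9.36% of all genes), and the study's thresholds (over 0.58 in size on the log2 scale and p below 0.01), applied here to edgeR's unadjusted p-values, gave 3 (5.89%). The 5 genes that DESeq2 called were H2-K1, H2-D1, Tap1, Tap2 and Tapbp. In none of the 10 did the groups separate, whereas 5.91% of all genes were lower in the LJP group without overlap.

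The largest of these differences was that of Tap1, at -1.22 on the log2 scale (standard error 0.42, edgeR adjusted p = 0.0928). H2-D1 differed by -1.06 (standard error 0.32, edgeR adjusted p = 0.0743) and H2-K1 by -0.87 (standard error 0.32, edgeR adjusted p = 0.109). In all 3 of these genes the 4 LJP mice lay below the Vehicle mean. Tap2 differed by -0.83 (standard error 0.23, edgeR adjusted p = 0.0699) and Tapbp by -0.72 (standard error 0.21, edgeR adjusted p = 0.0729). The adapter Tapbp and the transporter genes thus had estimates of the same sign as the heavy chains. For Psmb8 the difference was -0.76 (edgeR adjusted p = 0.152), for Nlrc5 -0.72 (edgeR adjusted p = 0.243) and for Psmb10 -0.45 (edgeR adjusted p = 0.0991). The estimates nearest to 0 were those of Psmb9, at -0.42 (95% interval -1.23 to 0.38, edgeR adjusted p = 0.452), and of B2m, at -0.20 (95% interval -0.81 to 0.40, edgeR adjusted p = 0.64). In these 2 genes 3 of the 4 LJP mice lay below the Vehicle mean, and the intervals still hold decreases of 1.23 and 0.81. Calls depended on which Vehicle mouse was in the fit: without Vehicle 3, which had the lowest level of 9 of the 10 genes in its group, 6 genes were called lower (H2-K1, H2-D1, Tap1, Tap2, Tapbp and Psmb10; 13.1% of all genes), and without Vehicle 4, 3 were (H2-D1, Tap2 and Tapbp; 8.38%). Without Vehicle 2 the number was 0 (0.0282% of all genes), and the estimates became -0.46 for H2-K1, -0.64 for H2-D1, -0.54 for Tap2, -0.36 for Psmb8, -0.073 for Psmb9, -0.42 for Nlrc5 and 0.076 for B2m. Other single mice also moved estimates by over 1.5 times: Psmb10 was at -0.26 without Vehicle 1, and Psmb9 was at -0.24 without LJP 2 and -0.64 without Vehicle 3. The estimate of B2m was -0.45 without LJP 1, -0.34 without Vehicle 1, -0.31 without Vehicle 3 and -0.12 without LJP 4, and without LJP 2 it was closer to 0 than any of these.

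Between the LJP and Sham groups, which are the groups already used in the comparisons above, 5 of the 10 genes were called higher in the LJP mice (3.85% of all genes): Nlrc5, Psmb8, Tap1, Psmb9 and B2m. Nlrc5 was higher by 1.95 on the log2 scale (edgeR adjusted p = 0.0278), Psmb8 by 1.81 (edgeR adjusted p = 0.0127) and Tap1 by 1.80 (edgeR adjusted p = 0.0395). Psmb9 was higher by 1.71 (edgeR adjusted p = 0.0321) and B2m by 1.25 (edgeR adjusted p = 0.0268). H2-K1, at 1.25 (edgeR adjusted p = 0.0504), and H2-D1, at 1.22 (edgeR adjusted p = 0.0507), fell just outside the threshold. The estimates of Tap2 (0.77, edgeR adjusted p = 0.0899), Tapbp (0.62, edgeR adjusted p = 0.132) and Psmb10 (0.29, edgeR adjusted p = 0.371) were smaller. In 9 of the 10 genes every LJP mouse was above every Sham mouse, as in 12.9% of all genes, and Psmb10 was the exception. DESeq2 called 8 of the 10 (5.6% of all genes), the study's thresholds on edgeR's p-values gave 8 (5.1%) and a fit of these groups alone gave 10 (12.1%). The count of 5 also changed when single mice were left out. Psmb8 alone was called without Sham 1 (1.99% of all genes), Sham 2 (2.11%), Sham 4 (2.11%), LJP 1 (2.39%) or LJP 3 (1.96%), and none of the 10 was called without Sham 3 (2.08%). The number was 8 without Vehicle 2 (7.77%) or Vehicle 3 (4.38%).

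**Figure D2:**
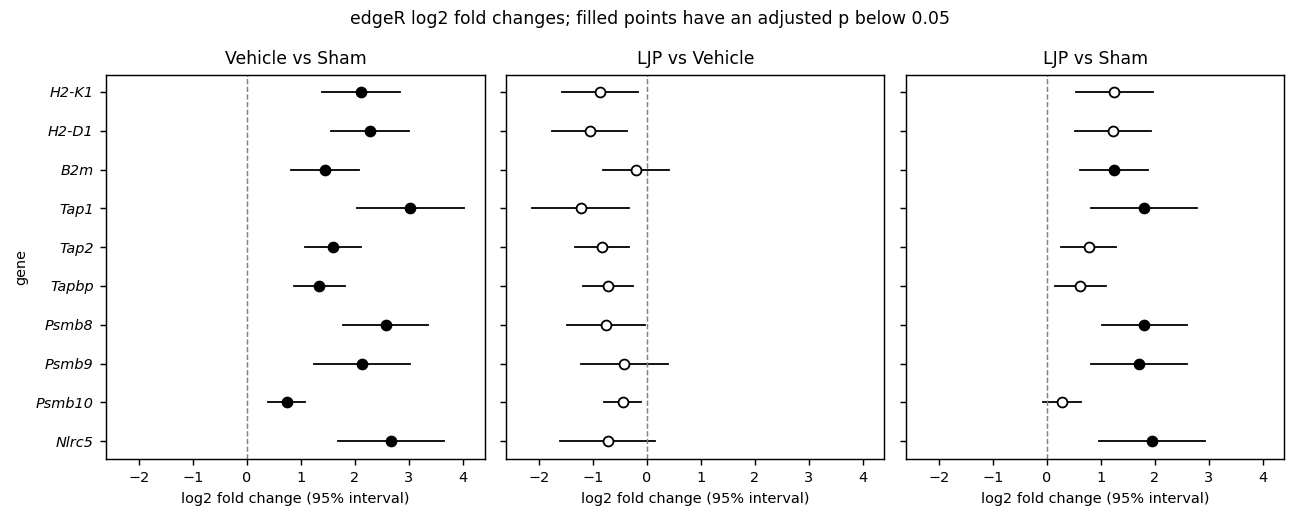
Log2 fold change (x axis) of each of the 10 genes (y axis) in the 3 comparisons, with 95% intervals from the edgeR fit of all 12 mice; filled points have an adjusted p below 0.05. All 10 points are filled and to the right of 0 for Vehicle against Sham, all 10 are open and to the left of 0 for LJP against Vehicle, and 5 are filled for LJP against Sham; the comparisons share mice.

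Each immunoproteasome subunit was set against the constitutive subunit whose place it takes, within each mouse. The constitutive subunits also rose in the Vehicle group, with smaller estimates: Psmb6 by 0.55, Psmb7 by 0.32 and Psmb5 by 0.27 on the log2 scale (edgeR adjusted p = 0.00275, 0.00775 and 0.00506). The log2 ratio of Psmb8 to Psmb5 was -5.08 ± 0.26 (SD, n = 4) in the Sham group, -2.93 ± 0.65 (SD, n = 4) in the Vehicle group and -3.54 ± 0.63 (SD, n = 4) in the LJP group. It did not overlap between the Vehicle and Sham mice or between the LJP and Sham mice, and both differences, 2.15 and 1.54, had a two-sided exact permutation p of 0.0286, the smallest that 4 mice against 4 can give, or 0.0643 after Benjamini-Hochberg adjustment over the 9 ratio comparisons. The log2 ratio of Psmb9 to Psmb6 was -5.79 ± 0.14 (SD, n = 4) in the Sham group, -4.46 ± 0.56 (SD, n = 4) in the Vehicle group and -4.46 ± 0.47 (SD, n = 4) in the LJP group. It was 1.33 higher than in the Sham group in both tMCAO groups (exact permutation p = 0.0286, adjusted 0.0643, in each), and the LJP and Vehicle means were alike to 2 decimals with the mice intermixed (exact permutation p = 1). The log2 ratio of Psmb10 to Psmb7 was -1.57 ± 0.16 (SD, n = 4) in the Sham group, -1.19 ± 0.23 (SD, n = 4) in the Vehicle group and -1.42 ± 0.11 (SD, n = 4) in the LJP group. For this pair the Vehicle mice overlapped the Sham mice (difference 0.39, exact permutation p = 0.0571, adjusted 0.0857). The LJP to Vehicle differences were -0.61 for Psmb8 to Psmb5 (exact permutation p = 0.257, adjusted 0.289) and -0.24 for Psmb10 to Psmb7 (exact permutation p = 0.0571, adjusted 0.0857). The first became -0.30 without Vehicle 2 and -0.33 without LJP 2, and the second -0.13 without Vehicle 1. A ratio shows only that the members of a pair changed unequally.

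**Figure D3:**
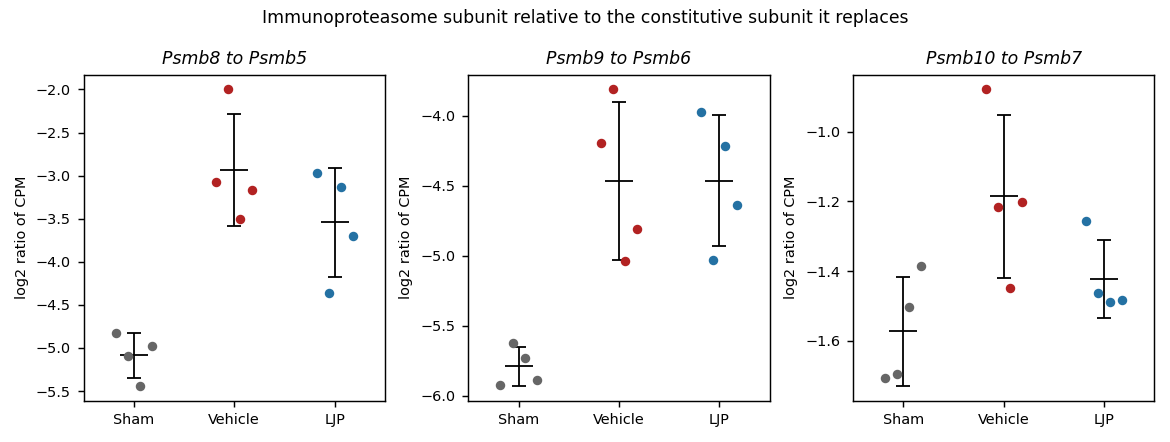
Log2 ratio of CPM (y axis; scales differ between panels and do not start at 0) of each immunoproteasome subunit to its constitutive counterpart in the 12 mice by group, with 1 point per mouse and bars for the mean and SD of 4 mice. The Sham points of Psmb8 to Psmb5 and of Psmb9 to Psmb6 lie below all other points, and those of Psmb10 to Psmb7 overlap the other groups.

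Per kilobase of gene length, the scale on which genes can be compared, B2m was the most abundant of the 10 in the Sham group at 45.2 CPM per kb, followed by H2-D1 at 30.4 and Psmb10 at 20.2. Tapbp (13.8) and H2-K1 (13.5) were next and overlapped between mice. Tap2 (4.30) and Psmb8 (2.00) came below them. Tap1 (1.03) and Psmb9 (0.933) overlapped, and Nlrc5 was last at 0.13. In this group all other neighbours in the order were separated in all 4 mice. In the Vehicle group H2-D1 (147 CPM per kb) and B2m (123) led, with overlapping ranges, and H2-K1 (58.4), Tapbp (34.9) and Psmb10 (33.6) followed, each overlapping its neighbours. Below a gap in all 4 mice came Tap2 (13), Psmb8 (11.9), Tap1 (8.36) and Psmb9 (4.09), which overlapped in turn, and Nlrc5 (0.831) was separate and last. In the LJP group B2m led at 107 CPM per kb over H2-D1 at 70.9 and H2-K1 at 32.0, and B2m and H2-D1 overlapped while H2-D1 and H2-K1 did not. Nlrc5 was separate and last at 0.505. Psmb10 thus stood above Tapbp and H2-K1 in the Sham group and below H2-K1 in the tMCAO groups, with overlap there.

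Within a group the same mice tended to be high or low for most of these genes. Vehicle 2 had the highest level in its group for 8 of the 10 genes and Vehicle 1 for the other 2 (Tapbp and Psmb10), while Vehicle 3 had the lowest for 9. In the LJP group LJP 1 was highest for 9 and LJP 2 lowest for 9. The median difference of the 10 genes from the Sham mean was 2.21, 2.83, 1.10 and 1.62 on the log2 scale in Vehicle mice 1 to 4 and 1.79, 0.59, 1.43 and 1.01 in LJP mice 1 to 4. Vehicle 3 thus stood below LJP 1 and LJP 3 by this median. After the group means were removed, the 45 pairs of these genes had Pearson correlations of 0.12 to 0.97 over the 12 mice, with a median of 0.85, and the pairs with Psmb10 had a median of 0.67. The points share a library and its depth, and these correlations are descriptions.

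**Figure D4:**
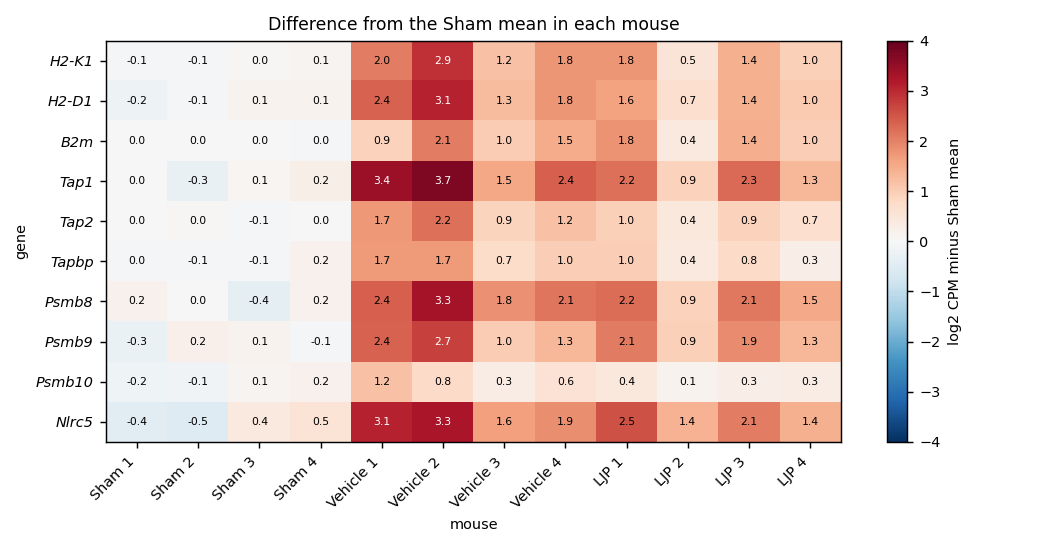
Difference in log2 CPM from the Sham mean (colour and number) for each of the 10 genes (rows) in each of the 12 mice (columns). The columns of Vehicle 1 and Vehicle 2 are the darkest, those of LJP 2 and LJP 4 are the palest among the tMCAO mice, and the Psmb10 row is the palest.

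Summed markers of other cell types also differed between mice of a group, in part in the same order as these genes. Summed markers of monocytes and macrophages were at 16.3 to 24.7 CPM in Sham mice, at 146, 325, 69.8 and 116 CPM in Vehicle 1 to 4 and at 69.1, 28.0, 106 and 31.0 CPM in LJP mice 1 to 4. Vehicle 2 was the highest and Vehicle 3 the lowest Vehicle mouse, as for most of the 10 genes, and LJP 2 was the lowest LJP mouse, but the highest was LJP 3 and not LJP 1. Of the 8 monocyte and macrophage genes 6 passed the filter, 2 of them with fewer than 10 counts in at least 1 Sham mouse, and the 6 were called higher under Vehicle than under Sham, beside 22.7% of all genes. Summed endothelial markers were at 228 to 249 CPM for Sham, 740, 1584, 328 and 392 CPM under Vehicle and 229 to 298 CPM under LJP. Of the 8 endothelial genes, 6 were called higher under Vehicle than under Sham (22.7% of all genes) and 0 between the LJP and Sham groups (3.85% higher), where 0 also had an unadjusted p below 0.05 and DESeq2 called 0. Between the LJP and Vehicle groups, 7 of the 8 were lower at an unadjusted p below 0.05 (17.4% of all genes), the log2 fold changes of the 8 having a median of -1.66, and DESeq2 called 7 of the 8 endothelial and 3 of the 8 monocyte and macrophage genes lower (9.36% of all genes). Summed neutrophil markers were at most 0.519 CPM for Sham, 165, 40.5, 0.754 and 5.55 CPM under Vehicle and 0.307 to 1.11 CPM under LJP, with Ly6g, Cxcr2 and Retnlg at 0 in every Sham mouse. None of the 8 neutrophil genes passed the filter of edgeR's test. DESeq2, run without that filter, called 5 of the 8 higher under Vehicle than under Sham (20.4% of all genes). It called 5 lower under LJP than under Vehicle (9.36%). Of the 8, 7 had at most 3 counts in every Sham mouse, so these calls rest on the Vehicle mice. The summed neutrophil markers were highest in Vehicle 1 in the Vehicle group. Summed microglia markers were at 322 to 326 CPM for Sham, 442, 855, 946 and 991 CPM under Vehicle and 1020, 568, 1036 and 575 CPM under LJP. Among the Vehicle mice they were lowest in Vehicle 1, a mouse high in the class I genes. Among the LJP mice they were higher in LJP 1 and LJP 3 than in LJP 2 and LJP 4, as was the median of the 10 genes. Of the 8 microglia genes, 6 were called higher under Vehicle than under Sham (22.7% of all genes) and 6 under LJP than under Sham (3.85%). Between the LJP and Vehicle groups 0 were called, with a median of 0.04. Summed T and NK cell markers were at 20.2 to 26.9 CPM for Sham, 5.46 to 7.44 CPM under Vehicle and 8.44 to 14.4 CPM under LJP, and 9 of the 14 genes had at most 3 counts in every Sham mouse. Cd4 made up most of this sum in the Sham and LJP mice, at 19.0 to 25.3 CPM for Sham, 1.85 to 5.54 CPM under Vehicle and 6.25 to 12.1 CPM under LJP, while the other 13 genes together were at 3.61 CPM or less in every mouse and exceeded Cd4 in Vehicle 2. Only 2 of the 14 genes passed edgeR's filter, of which Cd4 was called lower under Vehicle than under Sham, by -2.54 on the log2 scale, and the other was at 0.03. Summed neuron markers were at 6860 to 7628 CPM for Sham, 5513, 4052, 6519 and 6212 CPM in Vehicle 1 to 4 and 6387, 7016, 6248 and 7415 CPM in LJP 1 to 4. In the Vehicle group their order was the reverse of the order by the median of the 10 genes, and 4 of the 8 neuron genes were called lower under Vehicle than under Sham (17.3% of all genes). Between the LJP and Vehicle groups all 8 had positive estimates, with a median of 0.28, and 0 were called. At an unadjusted p below 0.05, 2 of these were higher (12.3% of all genes), and DESeq2 called 1 higher (3.81% of all genes). The part of these cell types in the class I differences was not tested.

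Companion lists of the pathway were described in the same way. Among other class I heavy chains, class I-like genes included, 11 of the 16 tested were called higher under Vehicle than under Sham and 0 lower, beside 22.7% of all genes higher and 17.3% lower, with a median of 0.93. Of the 16, 4 had fewer than 10 counts in at least 1 Sham mouse (H2-Q2, H2-Q7, H2-M5 and Cd1d1), and 2 of these were among the 11. Hfe, a class I-like gene of iron metabolism, was higher by 1.96 (edgeR adjusted p = 0.000287), H2-Q4 by 2.32 (edgeR adjusted p = 0.00304) and H2-M3, which presents formylated peptides, by 1.54 (edgeR adjusted p = 0.00144). Of 11 loading and trimming factors, 3 were higher and 2 lower, close to these shares of all genes, with a median of 0.15. The trimming aminopeptidase Erap1 was higher by 1.05 (edgeR adjusted p = 0.00549) and the aminopeptidase Lap3 by 0.58 (edgeR adjusted p = 0.00517), whereas the aminopeptidase Npepps was lower by -0.47 (edgeR adjusted p = 0.0185). The call of Npepps was lost without Sham 1 (edgeR adjusted p = 0.0527) or Vehicle 1 (0.0523) and in a fit of these groups alone (0.0561). Among 9 proteasome activators and assembly factors, 3 were higher: the activator subunits Psme2 (0.89, edgeR adjusted p = 0.00236) and Psme1 (0.70, edgeR adjusted p = 0.00615) and the assembly chaperone Psmg4 (0.49, edgeR adjusted p = 0.0288). The call of Psmg4 was lost without Sham 1, Sham 3, Sham 4, Vehicle 1 or Vehicle 2 (edgeR adjusted p of up to 0.0829), in a fit of these groups alone and with no filter (up to 0.0596). The count of 3 is near the 22.7% of all genes that were higher, and the list's median was 0.21.

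Of 15 tested genes of interferon input, 10 were called higher under Vehicle than under Sham and 0 lower, beside 22.7% and 17.3% of all genes, with a median of 0.91. Irf8, a transcription factor of microglia and macrophages, was higher by 1.96 (edgeR adjusted p = 0.000235), the receptor chain Ifnar2 by 1.18 (edgeR adjusted p = 0.000812) and the cytokine signalling inhibitor Socs3 by 4.65 (edgeR adjusted p = 0.000259). The interferon genes themselves were too low to test: Ifng had 0 counts in every Sham and LJP mouse and 0 to 3 in the Vehicle mice, and Ifnb1 had at most 1 count in any mouse. A count of 0 allows up to 3 counts, or 0.129 to 0.173 CPM at these depths, so low expression of either was not detectable. Among 14 factors of class I promoters, 5 were higher and 2 lower, beside the same 22.7% and 17.3% of all genes, with a median of 0.03. The NF-kappa B subunits Rela (1.20, edgeR adjusted p = 0.0021) and Nfkb1 (1.07, edgeR adjusted p = 0.0021) and Rfxank, a subunit of the RFX complex that binds the X box (0.43, edgeR adjusted p = 0.00386), were among the 5. The other subunits of the RFX complex on the list were not called. Of 12 genes listed as receptors for class I or as related immune receptors only 3 passed edgeR's filter. All 3 had fewer than 10 counts in at least 1 Sham mouse and passed the filter through the tMCAO mice. Each is therefore given by its own values without a p-value, and no count of them is read. Of these, Pirb is a known receptor of class I, whereas Lilrb4a is not an established one and Pilra is not known for binding it. Lilrb4a had 1 to 4 counts per Sham mouse, 206 to 817 per Vehicle mouse and 69 to 302 per LJP mouse. The inhibitory receptor Pirb had 3 to 5, 24 to 375 and 10 to 42 counts, and Pilra had 6 to 10, 30 to 93 and 14 to 39. The coreceptor genes Cd8a, with 0 to 4, 0 to 13 and 0 to 3 counts in the 3 groups, and Cd8b1, with at most 3 in any mouse, did not pass the filter.

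Between the LJP and Vehicle groups none of the genes in these 7 lists passed edgeR's adjusted threshold. At an unadjusted p below 0.05, 6 of 16 other heavy chains, 5 of 15 interferon input genes, 4 of 11 loading and trimming factors, 3 of 9 activators and assembly factors, 2 of 3 constitutive subunits and 3 of 14 promoter factors were lower, against 17.4% of all genes. Among the promoter factors 2 were higher, against 12.3% of all genes. DESeq2 called 3 heavy chains, 4 interferon input genes and 2 promoter factors lower and none of the loading and trimming factors, activators or constitutive subunits, beside 9.36% of all genes. The smallest adjusted p among the named genes of the lists, the receptors aside, was 0.0678, shared by Rela (-0.92) and Socs3 (-2.62) in edgeR's test. Irf8 was at -0.32 (edgeR adjusted p = 0.36), and at -0.50 to -0.17 when single mice were left out: -0.50 without LJP 1, -0.18 without Vehicle 2 and -0.17 without LJP 2 or LJP 4. The medians of the lists were -0.56 for the other heavy chains, -0.32 for interferon input, -0.20 for loading and trimming, -0.18 for the constitutive subunits, -0.13 for activators and assembly factors and -0.03 for promoter factors, beside -0.74 for the 10 genes.

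**Figure D5:**
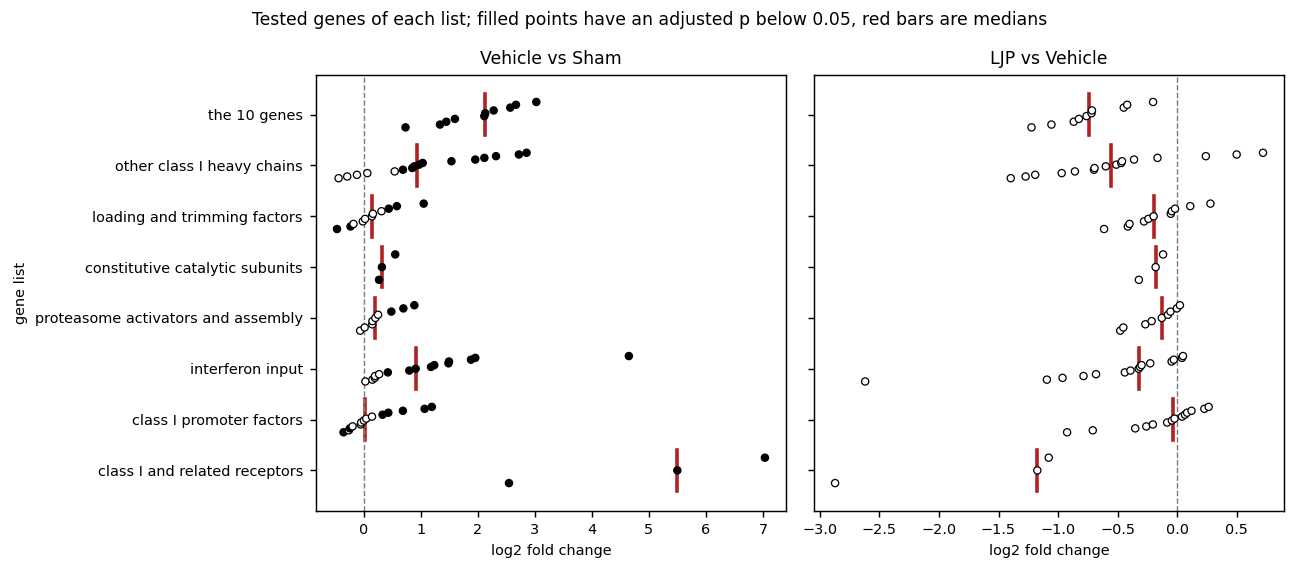
Log2 fold change (x axis; scales differ between panels) of every tested gene of the 10 described here (top row) and of the 7 companion lists (y axis), for Vehicle against Sham and LJP against Vehicle; filled points have an edgeR adjusted p below 0.05 and red bars are medians. In the first panel the median of the 10 genes lies to the right of those of the next 6 lists, and no point is filled in the second; the 3 receptors in the bottom row passed the filter through the tMCAO mice, and the value of Lilrb4a, the rightmost point, rests on 1 to 4 counts per Sham mouse.

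The genes outside the list whose levels followed H2-K1 most closely over the 12 mice, after the group means were removed, were Slfn5 (Pearson r = 0.97), Ncstn, Txndc17, Ifitm3 and Ifi47, all at r = 0.96 or more. For Psmb8 they were Capza1 (r = 0.96), Dtx3l, Rps28, Ifi35 and Parp9, at r = 0.95 or more. These are the highest of many correlations over 12 mice that share their library depth, and they are a description of these mice.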

How the data were processed

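The authors deposited raw read counts per gene for 12 mice, without normalization, with gene positions and a length in bases that is used here for CPM per kb. The submitters' processing notes name featureCounts, DESeq2 and the builds GRCm39 and mm10; 99.995% of the positions in the table equal RefSeq GRCm38.p6. The aligner, the strand setting and the treatment of reads shared between genes are not given in the sources used here. Groups came from the sample labels.

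Counts were fitted in R 4.3.3 with edgeR 4.0.16 (filterByExpr, TMM, quasi-likelihood test, all 12 mice, a coefficient per group), and p-values were adjusted over 17558 genes by the Benjamini-Hochberg method, with a threshold of 0.05. Standard errors are the log2 fold change divided by the root of the test's F. The study's thresholds, an absolute log2 fold change over 0.58 with p below 0.01, were applied to edgeR's unadjusted p-values. Log2 CPM used a prior count of 2. Subunit ratios were tested by exact permutation over mice, two-sided. Alternatives were DESeq2 1.42.0, RLE or library size normalization, no filter, the 2 groups alone, a replicate block, a prior count of 0.5 and leaving out each mouse. Scripts ran in Python 3.11.15 with scipy 1.17.1. The test was checked on simulated counts. Mice of a group differed by more than sampling noise (chi-square per degree of freedom 2.48 or more). Floors of 3 counts cover counting error only.

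The genes, the lists and their tests were chosen with earlier results of these data known. Named list genes were the 3 with the smallest p in Vehicle against Sham in each list, lists of 4 or fewer in full, Ifng, Ifnb1, Cd8a and Cd8b1, and the 5 genes that followed H2-K1 and Psmb8 most closely.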

Additional observations from a re-analysis of the deposited data

Results flagged for a closer look

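Within groups of 4 mice, the gap of the highest or lowest mouse to its neighbour was divided by the group's range, and values above Dixon's 95% limit for 4 values were taken for a closer look. Of 93 groups over 31 genes, 4 passed, where chance at 1 in 20 gives 4.65. Tapbp in Sham 4 was the highest of its group with a ratio of 0.91. Hfe in LJP 3 was the highest of its group at 0.868. Lap3 in Sham 3 was the lowest of its group at 0.917, and Rfxank in Sham 3 was the highest of its group at 0.875.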

How the results depend on the processing

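The 10 calls of Vehicle against Sham held under every alternative run, in 182 of 182 values for single genes. For LJP against Vehicle the number of the 10 genes called was 0 with edgeR, 5 with DESeq2 and 3 at the study's thresholds on edgeR's p-values, and 0 to 6 when single mice were left out. For LJP against Sham it was 5 with edgeR, 8 with DESeq2, 10 in a fit of those 2 groups alone, 8 at the study's thresholds and 0 to 8 when single mice were left out. Replicate numbers did not pair the mice: same-numbered mice had correlations of -0.32 to 0.11 after group means were removed. With the replicate number as a block the LJP against Sham number was 1 (Psmb8; 2.31% of all genes), and the block left the numbers of the other comparisons at 10 and 0. When single mice were left out, the LJP to Vehicle difference of B2m ran from -0.45 to 0.076, reversed without Vehicle 2 (0.076), and that of the Psmb9 to Psmb6 ratio ran from -0.19 to 0.22, reversed without LJP 2 (0.19), LJP 4 (0.058), Vehicle 1 (0.089) and Vehicle 2 (0.22). The cause was not tested. Among the other named genes, 10 of 378 values for Vehicle against Sham lost their call, all of Npepps or Psmg4, and 32 of 378 for LJP against Vehicle gained one, under DESeq2, without Vehicle 3, without Vehicle 4 or with genes of low counts kept in. Psmb9 and Nlrc5 had 12 to 28 counts in the Sham mice, which limits their precision.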
